A study of Homo sapiens with 4 samples.

Results

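The genes described here report and restrain the activity of ERK, the kinase at the end of the RAS-RAF-MEK pathway. They are the phosphatases DUSP4, DUSP5 and DUSP6, the inhibitors SPRY2, SPRY4, SPRED1 and SPRED2, the transcription factors ETV4 and ETV5, and PHLDA1. The members were chosen by gene symbol and number 10 of the 15220 genes with a transcript in the data. Their mRNA was measured by RNA-seq in 2 human cell lines, with 2 libraries each. PANC-1, labelled wild type, is an established line of pancreatic ductal adenocarcinoma and was not transduced. PZT-2 is 1 clone of PANC-1 that carries lentiviral short hairpin RNAs, driven by a U6 promoter, against the 3 isoforms of the histone variant H2A.Z, and was selected with puromycin. Both lines were grown in DMEM with serum, received no other treatment and are labelled passage p12-p13. The clone was picked for its low H2A.Z level and slow growth, a control line with a scrambled hairpin is not analysed here, and so the knockdown, the choice of the clone and the transduction cannot be told apart in any difference below.

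When growth factors or mutant RAS activate ERK, transcription of a small set of genes rises and part of that set feeds back on the pathway. DUSP6 and its relatives take the phosphates off ERK, with DUSP6 in the cytoplasm and DUSP4 and DUSP5 in the nucleus, while Sprouty and SPRED proteins act further up, between receptors and RAF, and SPRED proteins bring the RAS-inactivating protein NF1 to the membrane. ETV4 and ETV5 are ETS factors of the PEA3 group that carry the ERK signal to other promoters, and the repressor Capicua (CIC), which ERK inactivates, holds down ETV4, ETV5 and several of the feedback genes. For this reason mRNAs of this group are widely used as a readout of ERK output, although the present data hold no measurement of ERK phosphorylation or of protein.

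The libraries held between 12861388 and 15717449 estimated counts, and the targets of the hairpins followed the labels. H2AFZ, which encodes H2A.Z.1, had 6389 and 6034 normalized counts in PANC-1 and 2212 and 2259 in PZT-2, and its log2 fold change was -1.47. H2AFV, which encodes both H2A.Z.2 isoforms, changed by -0.36. The epithelial keratins KRT8, KRT18 and KRT19 were abundant in both lines but lower in PZT-2. The 5 epithelial markers fell in sum from 7245 and 7220 to 3817 and 3745 TPM, a length-corrected measure of transcripts per total. KRT7 and EPCAM were scarcer, at means of 9.92 and 8.11 TPM in PANC-1 and 8.12 and 7.13 TPM in PZT-2, and did not pass the test. Of 12 markers of blood, endothelial, stromal, liver and other pancreatic cells, 9 were not in the set of genes tested. That set required at least 5 counts in at least 2 libraries. The 9 included PTPRC, CD3E, VWF, DCN, ALB, INS and PRSS1. PECAM1 was near 0 and COL1A1 was lower in PZT-2. CD68 was expressed in both lines, at means of 117 TPM in PANC-1 and 119 TPM in PZT-2, and its change did not pass the test. The part of these marker changes in the results on ERK output genes was not tested.

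Most ERK output and feedback genes had more mRNA in PZT-2 than in PANC-1. Of the 10 members, 8 were called higher and 0 lower at an adjusted p under 0.05 by the quasi-likelihood test of edgeR with Benjamini-Hochberg adjustment over all genes. Over the 15100 genes tested, 14.7% were called higher and 13.7% lower, together 28.4%. For 9 of the 10 members the lower PZT-2 library exceeded the higher PANC-1 library, which was so for 33.3% of all genes. The median log2 fold change of the members was 0.73 and that of all genes 0.00. The members were chosen with earlier results of these data known, so these comparisons with all genes are descriptions and not tests. The changes ran from 3.91-fold for DUSP5 through 1.26-fold for SPRED1 and SPRED2 to none past the test for PHLDA1. Because these are bulk samples, fewer cells of a type and less RNA per cell cannot be told apart. The study describes the libraries of a line as biological replicates. The labels do not say whether they came from separate cultures, and the p-values measure the spread between these libraries.

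**Figure D1:**
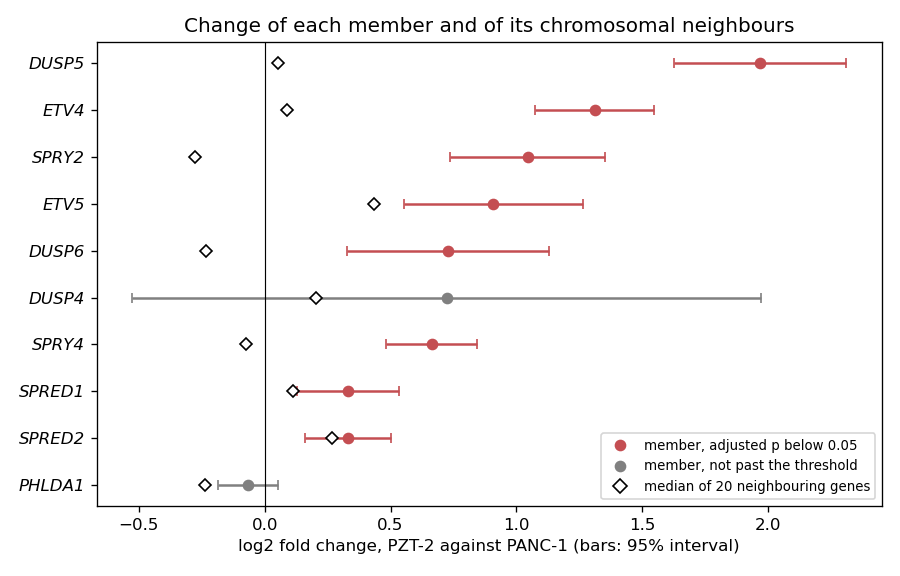
Log2 fold change of each member in PZT-2 against PANC-1 on the horizontal axis, with 95% intervals as bars, and, as open diamonds, the median log2 fold change of the 20 genes nearest to it on its chromosome. DUSP5 at 1.97 and ETV4 at 1.31 lie farthest to the right, PHLDA1 lies near 0, the intervals of SPRED2 and DUSP4 include the median of their neighbours and that of SPRED1 begins just above it.

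Among the phosphatases, DUSP5, which holds ERK in the nucleus and dephosphorylates it there, changed most of all members. It had 974 and 705 normalized counts in PANC-1 and 3133 and 3411 in PZT-2, with means of 840 ± 191 and 3272 ± 196 (SD, n = 2). The lower PZT-2 library was more than 3 times the higher PANC-1 library. The log2 fold change was 1.97 (SE 0.14, 95% interval 1.63 to 2.31, adjusted p = 4.48e-04 in edgeR), and it stayed between 1.74 and 2.21 when any single library was left out.

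DUSP6, the cytoplasmic ERK phosphatase and the member most often read as a marker of ERK activity, rose less. It had 233 and 167 normalized counts in PANC-1 and 310 and 348 in PZT-2. The lines did not overlap, but the gap between the lines was about as wide as the gap between the PANC-1 libraries. The log2 fold change was 0.73 (SE 0.17, 95% interval 0.33 to 1.13, adjusted p = 0.0206 in edgeR). Without PZT-2 replicate 1 the adjusted p was 0.0546, and without PZT-2 replicate 2 it was 0.116.

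DUSP4, a nuclear phosphatase of ERK and of other MAP kinases, was almost absent. It had 5 and 7 counts in PANC-1 and 12 and 8 in PZT-2 before normalization. Both PZT-2 libraries were higher, yet the log2 fold change of 0.72 had a 95% interval from -0.53 to 1.97 and an adjusted p of 0.353 in edgeR, so a change up or down was not detectable at this depth. Its level of 0.127 to 0.270 TPM was far below that of every other member.

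The 4 Sprouty and SPRED genes all rose, and the 2 Sprouty genes rose more than the 2 SPRED genes did in their fitted values, a difference between genes that was not tested. SPRY2, which binds GRB2 and the ubiquitin ligase CBL, had 326 and 387 normalized counts in PANC-1 and 667 and 810 in PZT-2. Both PZT-2 libraries lay far above the PANC-1 libraries, with a log2 fold change of 1.05 (SE 0.13, 95% interval 0.74 to 1.35, adjusted p = 0.0023 in edgeR). SPRY4, which acts on RAF among other steps, had 1031 and 927 normalized counts in PANC-1 and 1590 and 1507 in PZT-2. Replicates lay close together and far from the other line, with a log2 fold change of 0.66 (SE 0.08, 95% interval 0.48 to 0.84, adjusted p = 0.00179 in edgeR).

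SPRED1 and SPRED2 are membrane-bound relatives of the Sproutys that work with NF1. SPRED1 had 451 and 490 normalized counts in PANC-1 and 576 and 610 in PZT-2. SPRED2 had 1125 and 1055 in PANC-1 and 1422 and 1318 in PZT-2. For both genes the lines did not overlap and the log2 fold change was 0.33, with SE 0.08 and adjusted p = 0.029 for SPRED1 and SE 0.07 and adjusted p = 0.0159 for SPRED2 in edgeR. Both calls depended on the libraries kept. SPRED1 did not pass with DESeq2 (adjusted p = 0.101) or limma on log2(TPM + 1) (adjusted p = 0.102), nor with 3 of the 4 libraries left out in turn, where its adjusted p ran from 0.0198 without PANC-1 replicate 2 to 0.154 without PZT-2 replicate 2. SPRED2 lost its call without PZT-2 replicate 1 (adjusted p = 0.111) or PZT-2 replicate 2 (adjusted p = 0.0571).

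Both PEA3 factors among the members rose. ETV4, which with ETV5 mediates much of the response to fibroblast growth factors in development, had 162 and 159 normalized counts in PANC-1 and 406 and 392 in PZT-2. Replicates of this gene were nearly equal, and the lines were far apart. The log2 fold change was 1.31 (SE 0.10, 95% interval 1.08 to 1.55, adjusted p = 4.99e-04 in edgeR), and without any 1 library it was between 1.29 and 1.34. ETV5 had 1789 and 1263 normalized counts in PANC-1 and 2834 and 2876 in PZT-2. The PZT-2 libraries were close together and above both PANC-1 libraries, which themselves differed. The log2 fold change was 0.91 (SE 0.15, 95% interval 0.55 to 1.26, adjusted p = 0.00616 in edgeR), from 0.67 to 1.17 without any 1 library, and it passed the test each time.

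PHLDA1 encodes a pleckstrin-homology-like protein that is induced by growth factors. It had 6936 and 6628 normalized counts in PANC-1 and 6492 and 6453 in PZT-2. Both PZT-2 libraries were slightly lower, opposite to the other 9 members, with a log2 fold change of -0.07 (SE 0.05, 95% interval -0.19 to 0.05, adjusted p = 0.366 in edgeR). With more counts than any other member in every library it also had the narrowest interval, which lies below the interval of each of the 8 called members.

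**Figure D2:**
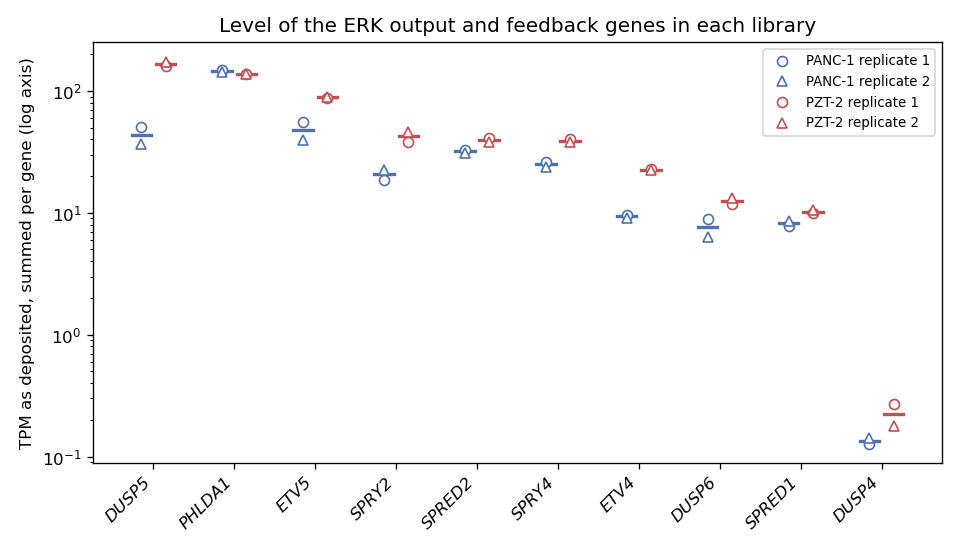
TPM of each member, summed over its transcripts, on a log axis in each of the 4 libraries, with circles for replicate 1, triangles for replicate 2 and a bar at the mean of the line. The members span from under 1 TPM for DUSP4 to over 100 TPM for PHLDA1, and DUSP5 moves from below ETV5 and PHLDA1 in PANC-1 to above both in PZT-2.

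Levels of different genes can be compared only per length, for which the deposited TPM were summed over the transcripts of each gene. These TPM carry a scaling per library and add up to between 940619 and 1000097, lower in both PZT-2 libraries, so the tests between lines rest on the normalized counts. In PANC-1, PHLDA1 led with 148 and 142 TPM. ETV5 followed with 55.8 and 39.6 TPM and DUSP5 with 50.2 and 36.5 TPM, and the ranges of these genes overlapped. Mean levels then declined through SPRED2 (32.0 TPM), SPRY4 (25.0 TPM), SPRY2 (20.7 TPM), ETV4 (9.39 TPM), SPRED1 (8.17 TPM) and DUSP6 (7.62 TPM), with overlap between neighbours only for SPRED1 and DUSP6. In PZT-2 the order was led by DUSP5, at 160 and 174 TPM, above PHLDA1 at 138 and 137 TPM and ETV5 at 87.9 and 88.9 TPM. SPRY2, SPRED2 and SPRY4 overlapped there at means of 42.3, 39.5 and 39.1 TPM. ETV4 reached 22.6 TPM and DUSP6 12.4 TPM, which no longer overlapped SPRED1 at 10.2 TPM.

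Summed by role, the 3 phosphatases went from 59.1 and 43.0 TPM in PANC-1 to 172 and 188 TPM in PZT-2, of which DUSP5 made up most. The 4 Sprouty and SPRED genes went from 85.8 and 85.8 TPM to 129 and 133 TPM. The 2 PEA3 factors among the members went from 65.5 and 48.7 TPM to 111 and 111 TPM. All 3 sums were higher in both PZT-2 libraries than in both PANC-1 libraries. The spread of these sums between the PANC-1 libraries was small for the inhibitors and wide for the phosphatases and ETS factors. Single inhibitors differed in opposite directions. As log2 ratios of replicate 1 to replicate 2, SPRY2 was at -0.24 and SPRED1 at -0.12, and SPRY4 at 0.15 and SPRED2 at 0.09.

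**Figure D3:**
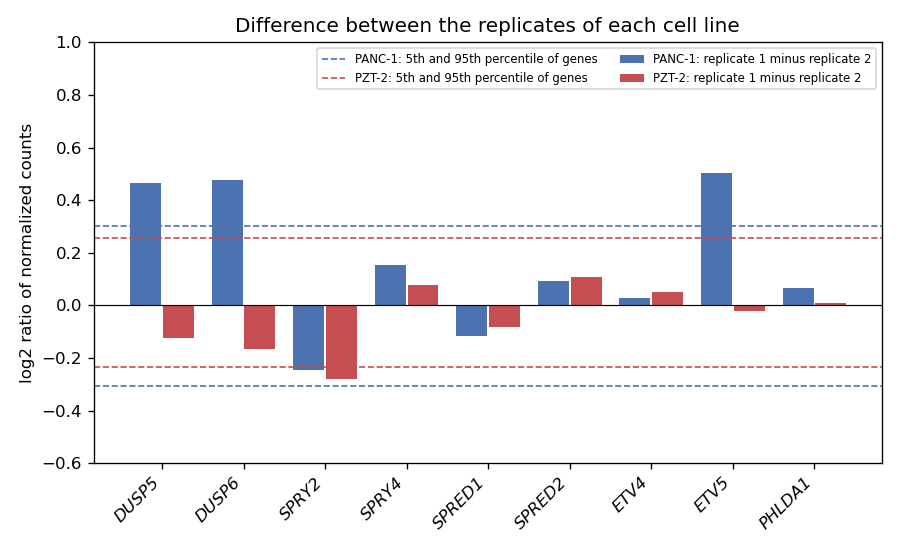
Log2 ratio of normalized counts between replicate 1 and replicate 2 of each line for the 9 members with a mean of at least 100 normalized counts (blue PANC-1, red PZT-2), with dashed lines at the 5th and 95th percentile of the 10052 genes at that level. DUSP5, DUSP6 and ETV5 lie above the upper line in PANC-1, and SPRY2 lies below the lower line in PZT-2.

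The spread between the PANC-1 libraries was wide and in the same direction for 3 members. PANC-1 replicate 1 exceeded PANC-1 replicate 2 by 0.47 for DUSP5, 0.48 for DUSP6 and 0.50 for ETV5 on the log2 scale, at the 98.1, 98.2 and 98.5 percentiles of the 10052 genes with a mean of at least 100 normalized counts, of which the middle 90% lay between -0.30 and 0.30. ETV4 differed by 0.03 and SPRY2 by -0.24 between the same libraries, so the members did not all move together. In PZT-2 the same 3 genes differed by -0.12, -0.17 and -0.02. Leaving out PANC-1 replicate 1 raised the log2 fold change of DUSP5 and ETV5 to the upper ends of the ranges given above and that of DUSP6 to 0.97. What set the PANC-1 libraries apart at these genes was not tested.

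The genes whose pattern over the 4 libraries was nearest to that of DUSP5 were THBD, RGL1 and CACNG7. Likeness was the Euclidean distance between log2 CPM, which are counts scaled to the library, centred on each gene's mean, over 10052 genes. THBD, which encodes the anticoagulant receptor thrombomodulin, had 168 and 117 normalized counts in PANC-1 and 579 and 643 in PZT-2, at a distance of 0.14. It was high and low in the same libraries as DUSP5, PANC-1 replicate 1 above replicate 2 included. RGL1, an exchange factor for RAL proteins, stood at a distance of 0.21 and CACNG7, a calcium channel gamma subunit, at 0.24.

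Each member was also set beside the 10 tested genes on either side of it, because a clone can differ from its parent line in the copy number of whole chromosome arms. For DUSP5 on chromosome 10, DUSP6 on chromosome 12, SPRY2 on chromosome 13, SPRY4 on chromosome 5 and ETV4 on chromosome 17, the median log2 fold change of these 20 neighbours was 0.05, -0.23, -0.28, -0.07 and 0.09. Each of these medians lay below the 95% interval of its member. On chromosome 3, where 48.6% of tested genes were called higher and the median was 0.43, the neighbours of ETV5 also had a median of 0.43, with 9 of 20 called higher. The interval of ETV5, from 0.55 to 1.26, lay above it. SPRED2 on chromosome 2 had neighbours with a median of 0.27, of which 10 of 20 were called higher, and its interval from 0.16 to 0.50 included that value. SPRED1 on chromosome 15 had neighbours with a median of 0.11, just under its interval of 0.13 to 0.53, while the whole chromosome had a median of 0.24, inside it. DUSP4 on chromosome 8 had neighbours with a median of 0.20, inside its wide interval, and PHLDA1 on chromosome 12 had neighbours with a median of -0.24, below its interval. The part of the neighbourhood in the change of any member was not tested.

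The estimates were made per transcript, and 21 transcripts belonged to the members, with 6 genes represented by 1 transcript each. Tested singly over 30403 transcripts in edgeR, of which 0.148% were called, 0 of the 21 passed. An unadjusted p under 0.05 was found for 10 of the 21 and for 5615 of the 30403. A positive log2 fold change was found for 18 of the 21, and the share of all transcripts with that sign was not counted. SPRED2 and SPRY4 had transcripts on both sides of 0. For SPRY4 this was NM_030964, with 118 and 37.2 normalized counts in PANC-1 and 41.2 and 98.6 in PZT-2, which overlapped between the lines. In SPRED2 the lines were separate for both transcripts. Its main transcript NM_181784 had 856 and 777 normalized counts in PANC-1 and 1200 and 1100 in PZT-2, with a log2 fold change of 0.49 and an adjusted p of 0.111. The other, NM_001128210, had 269 and 282 in PANC-1 and 220 and 214 in PZT-2, with a log2 fold change of -0.35 and an adjusted p of 0.274. The main transcript took 76.1% and 73.4% of the gene in PANC-1 and 84.5% and 83.7% in PZT-2, so the shares did not overlap, and neither change passed the test.

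ETV4 was the opposite case, with a stable total and an unstable split over 5 transcripts. NM_001261438 was given 66.4 and 25.4 normalized counts in PANC-1 and 0 and 110 in PZT-2. NM_001079675 was given 15.7 and 59.9 in PANC-1 and 189 and 138 in PZT-2. These values vary more between replicates than the gene's total does, so ETV4 is described here by its total. SPRY2 and SPRY4 each had 1 transcript, NM_005842 and NM_001127496, with at least 77.0% of the counts in every library.

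Among 13 paralogs of the members, all tested, 6 were called higher and 2 lower, against 14.7% and 13.7% of all genes. Their median log2 fold change was 0.37. PHLDA3, a relative of PHLDA1 that restrains AKT and is a p53 target, had 133 and 157 normalized counts in PANC-1 and 425 and 500 in PZT-2, which was a change of 1.67 on the log2 scale (adjusted p = 6.16e-04 in edgeR). The other risers named here were DUSP10 (0.91), a phosphatase of p38 and JNK, SPRED3 (0.83), DUSP7 (0.61), an ERK phosphatase close to DUSP6, and DUSP1 (0.56), an immediate early phosphatase of several MAP kinases. DUSP10 was also called in 1 of the 4 fits that left out a library. DUSP7 lies on chromosome 3, where 48.6% of tested genes were called higher and the median log2 fold change was 0.43. The interval of DUSP7, from 0.34 to 0.89, included that median. The part of the chromosome in the change of DUSP7 was not tested. Families split, since SPRY1 had 354 and 418 normalized counts in PANC-1 and 190 and 196 in PZT-2. SPRY1 thus fell by 1.00 on the log2 scale (adjusted p = 0.00198 in edgeR) while SPRY2 and SPRY4 rose. DUSP9, a cytoplasmic ERK phosphatase of the DUSP6 type, changed by -1.07 (adjusted p = 0.00361 in edgeR). ETV1, the remaining PEA3 factor, had a log2 fold change of 0.09 and was not called.

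Of 20 other genes known to respond to ERK, 17 were tested. Of these, 9 were called higher and 0 lower, against 14.7% and 13.7% of all genes. Their median log2 fold change was 0.38, and the list was chosen with earlier results of these data known. EPHA4, EGR2 and EGR3 were not in the set of genes tested. The 5 largest rises were those of PLAUR (1.27), the urokinase receptor, HBEGF (0.99) and EREG (0.68), which are ligands of the EGF receptor family, and MAFF (0.82) and FOSL2 (0.76), which are transcription factors. HBEGF had 426 and 333 normalized counts in PANC-1 and 684 and 813 in PZT-2, and MAFF had 251 and 181 against 350 and 405. Neither overlapped between the lines, and in both PANC-1 replicate 1 was the higher of its pair, as for DUSP5, DUSP6 and ETV5. The 8 genes without a call included FOS and EGR1, both at -0.32, and FOSL1, JUNB, MYC and IER2, all within 0.06 of 0.

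The mRNAs of the pathway itself were called in both directions at shares not far from the background. Of 17 RAS to ERK kinases and adaptors, 4 were called higher and 3 lower, against 14.7% and 13.7% of all genes, and the median was 0.01. With replicate 1 of PZT-2 left out, 1 gene was called lower, and with replicate 2 left out, 0. MAPK3, which encodes ERK1, had a log2 fold change of 0.01 (95% interval -0.18 to 0.19) and did not pass the test. MAP2K1, which encodes the ERK kinase MEK1, had 1286 and 1313 normalized counts in PANC-1 and 2434 and 2566 in PZT-2, and so rose by 0.94 on the log2 scale (adjusted p = 3.11e-04 in edgeR). KSR1, the scaffold that holds RAF, MEK and ERK together, had 271 and 293 against 541 and 579 normalized counts, a log2 fold change of 0.99 (adjusted p = 9.30e-04 in edgeR). For both genes each PZT-2 library was well above each PANC-1 library. The adaptor GRB2 (0.40) was also called higher. SOS2 (-0.71), ARAF (-0.37) and NRAS (-0.34) were called lower, SOS2 also in 3 and ARAF and NRAS in 2 of the 4 fits that left out a library.

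Among 10 partners and regulators of the members, 2 were called higher and 1 lower, shares near those of all genes, with a median of 0.01. CIC had 1602 and 1478 normalized counts in PANC-1 and 1341 and 1224 in PZT-2. The lines did not overlap, and the log2 fold change was -0.26 (SE 0.08, adjusted p = 0.0423 in edgeR), a call that held in 1 of the 4 fits that left out a library. NF1 was at -0.15 (95% interval -0.42 to 0.12) and was not called. SIAH2 (0.69), a ubiquitin ligase that acts on SPRY2, lies on chromosome 3 and was higher. ZFP36 (0.25), which encodes an ERK-induced RNA-binding protein that shortens the life of mRNAs it binds, was also higher. The call of ZFP36 held in 1 of the 4 such fits, and its action on mRNAs was not tested.

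CIC recognizes a short octamer with the core AATG, and ETS factors such as ETV4 and ETV5 bind around GGAA. RefSeq windows from 250 bases before to 50 after the start (GRCh38.p14) were given for 6 members, SPRY2, SPRY4, SPRED1, SPRED2, DUSP6 and PHLDA1, in 9 windows, and were read on both strands. No window was given for DUSP4, DUSP5, ETV4 or ETV5. CCGGAAGT stood in 4.14% of all 35116 windows, TGAATGAA in 1.65% and TGAATGGA in 1.03%, and in 0 of the 9. At shares this low, 9 windows are too few to show a lack of these sites. Of 2 further CIC octamers, searched after the values were seen, TCAATGAA stood in 0.718% of windows and in 0 of the 9, and TCAATGGA in 0.510% and in DUSP6 alone of these members, in 2 copies, which 1 of the 35116 windows held. Both copies are shown because DUSP6 is the member read most often for ERK output. Capitals mark the octamer, read here as TCCATTGA on the strand of the gene, the minus strand of chromosome 12.
Copy before the start, chr12:89352508-89352535: ggagaatgtaTCCATTGAgacgctcgct
Copy at the start, chr12:89352483-89352510: gctgtttgtaTCCATTGAggagctgcct
The octamers lie from 24 to 17 bases before the start and from base 2 to base 9 of the transcript. A match is a description of the sequence, and binding was not measured.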

How the data were processed

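RNA of 2 PANC-1 and 2 PZT-2 libraries was sequenced by the authors as stranded, paired mRNA reads. They trimmed reads with Trim Galore 0.4.1, estimated RefSeq transcripts with kallisto 0.43.0 and compared the lines with sleuth 0.29.0; their columns of p-values, q-values and effects were not used. The build named per the labels is hg19. The deposited estimated counts carry 1 factor per library (0.935 to 1.16), found as the step on which low values of single-transcript genes fall and then undone. Among these values 49.0% to 49.8% became whole within 0.01, against 0.635% to 2.71% before. The deposited TPM, a further column per the file headers, carry a per-library scaling that was left as it is. They were summed per gene to order levels, and tested only as an alternative.

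Of 31077 transcripts, 27049 were named by the table and 3925 by accession in RefSeq (GRCh38.p14), which also gave gene order for 14577 genes, and 103 with 0.0466% of counts were left out. Counts were rounded, summed per gene and kept with at least 5 in 2 libraries. edgeR 4.0.16 (R 4.3.3, TMM, quasi-likelihood test, group as the only term) was used with Benjamini-Hochberg adjustment and a threshold of 0.05, and was tested on simulated data. Normalized counts are scaled to the mean library. The smallest two-sided p of an exact permutation test of 2 against 2 is 0.333, so none was run. Counting error is smaller than the spread between replicates, whose variance was 6.23 times that of counting in PANC-1 and 3.52 times in PZT-2.

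Members and lists were chosen with earlier results of these data known. Named were all members, the called genes of each other list by size, at most 5 a direction, a few pathway genes such as MAPK3, NF1 and CIC whatever their result, and the 3 genes nearest DUSP5, and a few genes that this rule names are not reported here. Genes without a call named beside them (FOS, EGR1, FOSL1, JUNB, MYC, IER2, ETV1) and the lists' untested genes, were added to the text with their values known. Alternatives were RLE factors, DESeq2 1.42.0, 2 other filters, limma 3.58.1 on log2(TPM + 1) and log2(TPM + 0.1), counts with the factor kept, the replicate block, each library left out, a robust prior, a 2-fold minimum and the most abundant transcript alone.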

Additional observations from a re-analysis of the deposited data

How the results depend on the processing

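Every member kept its sign under every alternative that gave it a value, and the median of all genes stayed within 0.01 of 0. DUSP5 and SPRY2 kept their calls in all 15 alternatives. With single libraries left out, 1866 to 4690 genes were called over all genes tested, against 4289 with all 4, and the counts called higher ran from 5 to 8 for members, 3 to 8 for paralogs, 6 to 9 for other ERK-responsive genes and 3 to 5 for RAS to ERK genes. Counts called lower ran from 0 to 1 for other ERK-responsive genes and 0 to 4 for RAS to ERK genes. The low ends came without a PZT-2 library, with 2314 genes and 5 members without replicate 1 and 1866 genes and 5 members without replicate 2, and the lone PZT-2 library is then assumed to vary like PANC-1. With the most abundant transcript of each gene alone, 2130 genes, 5 members and 3 paralogs higher and 1 paralog lower were called, and ETV4, at 2.09, had an adjusted p of 0.0935 in edgeR. A further 2-fold minimum left 837 genes, 3 members (DUSP5, SPRY2 and ETV4), 1 paralog and 1 other ERK-responsive gene higher, and 0 RAS to ERK genes in each direction. The cause of these shifts, apart from fewer libraries or the minimum itself, was not tested.

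The labels number the replicates of both lines but do not say whether replicates of the same number were handled together. Over 15100 genes the differences between replicates correlated at -0.02 between the lines, which cannot show whether they were. With the replicate block 3706 genes and 8 members were called, and no call of a member changed. DUSP4 had no adjusted p with DESeq2 and did not pass the filter of 10 counts in all 4 libraries. At 5 to 12 counts, DUSP4 is the member that depth limits most.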

Other observations

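Replicate 1 of PANC-1 exceeded replicate 2 at further genes that respond to or act on ERK, by 0.47 for MAFF, 0.38 for FOSL2 and 0.36 for HBEGF on the log2 scale (98.2, 97.0 and 96.7 percentiles of 10052 genes), while EGR1 was at -0.33 (4.0 percentile). CCND1 at -0.16, PLAUR at 0.07 and IER3 at 0.01 lay inside the middle 90% of genes. Among paralogs and partners of the members, the same libraries differed at DUSP8, a JNK and p38 phosphatase, by 1.36 and at ATXN1, a partner of CIC, by 0.63. These genes were named after their values were seen, and the cause was not tested.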
